A study of Mus musculus with 4 samples.

Results

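The clustered protocadherin genes lie in 3 tandem arrays on mouse chromosome 18. They were taken as all ATAC-seq peaks that overlapped mm10 positions 36900000 to 37900000, together with the protein-coding genes there whose symbols start with Pcdha, Pcdhb or Pcdhg. Peaks of 4 libraries were merged where they overlapped, which gave 132 regions in this window of 170898 in the genome. The gene rule gave 57 of 21887 protein-coding genes, namely 14 alpha, 22 beta and 21 gamma genes. Pcdhgb8, listed as a transcribed pseudogene, was not a member, and neither were Gm37013, Gm38666 and Gm38667, whose spans run from the alpha array to the end of the gamma array.

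The study used 2TS22C, a mouse embryonic stem cell line, grown in 2i serum/LIF medium. In both groups the endogenous Sox2 gene was silenced, per the labels, and the cells received DOX. A lentivirus supplied SOX2 in one group and SOX17FNV, an engineered form of the endoderm factor SOX17, in the other. Each group had 2 libraries from 900000 cells each. The labels call them biological replicates but do not say whether they came from separate cultures or derivations. The promoter of the lentiviral genes is not given in the labels. The comparison asks whether accessible chromatin at these genes differs between cells carrying the engineered factor and cells carrying SOX2.

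Clustered protocadherins are cadherin-like adhesion proteins, best known for giving single neurons a surface identity. Each alpha or gamma gene has its own promoter and begins with its own large variable exon, which encodes the extracellular, membrane and proximal cytoplasmic parts. That exon is spliced to constant exons at the downstream end of the array. Beta genes have no constant exons, and their coding sequence lies in 1 exon. In neurons each cell uses a small choice of the alternate promoters, and CTCF and cohesin link these promoters to distant enhancers. The c-type genes Pcdhac1, Pcdhac2, Pcdhgc3, Pcdhgc4 and Pcdhgc5 are used more broadly than the alternate ones.

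The libraries held 92851 to 123214 peaks, and replicate 1 of each group had the longer list. Pileup is the number of overlapping reads or fragments at a summit, and the lowest one listed was 10 to 13 per library. A start that was not called was therefore not detectable at this depth, which does not show that it was closed. Pileups of regions called in all libraries on chromosome 18 had medians of 0.929 to 0.958 times the genome-wide median of each library. Of the embryonic stem cell markers with a listed start, 4 of 5 had a region called within 1 kb of it in every library, and Esrrb had one in 3 libraries. All libraries also called the starts of 3 of 5 neuronal and 2 of 4 fibroblast markers. Over all protein-coding genes this share was 63.0%, and the neuronal and fibroblast shares lay near it. An accessible start is not a measure of expression. Below, values for the libraries are given in the order SOX17FNV replicate 1, SOX17FNV replicate 2, SOX2 replicate 1, SOX2 replicate 2.

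The protocadherin window was densely and reproducibly accessible in these stem cells. Of its 132 regions, 84 (63.6%) were called in all 4 libraries, against 33.8% of all regions. None of 88 windows of 1 Mb on chromosome 18 held more such regions, and their median was 16.5. Of 2564 windows in the genome, 15 held more. The number of peaks in the window was 112, 107, 118 and 109. The groups overlapped, with means of 109.5 ± 3.54 and 113.5 ± 6.36 (SD, n = 2, exact permutation p = 0.667, two-sided). With 2 libraries against 2, no exact permutation p can go below 0.333. The difference of -4 peaks between the groups was 0.5 without SOX2 replicate 1.

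Regions were densest in the gamma array. The alpha array, with a margin of 1 kb at its ends, held 20 regions called in all libraries, the beta array 18 and the gamma array 32. Per 100 kb these were 7.67, 6.97 and 17.6 regions. The 74.1 kb between alpha and beta held 1 such region. The 138.355 kb between beta and gamma held 8, or 5.78 per 100 kb, not far below the beta array. In that interval lie Slc25a2, a mitochondrial carrier gene, and Taf7, a gene of the general transcription machinery. The remaining 5, or 8.75 per 100 kb, lay downstream of gamma, in the Diaph1 gene, which encodes a formin that nucleates actin.

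**Figure D1:**
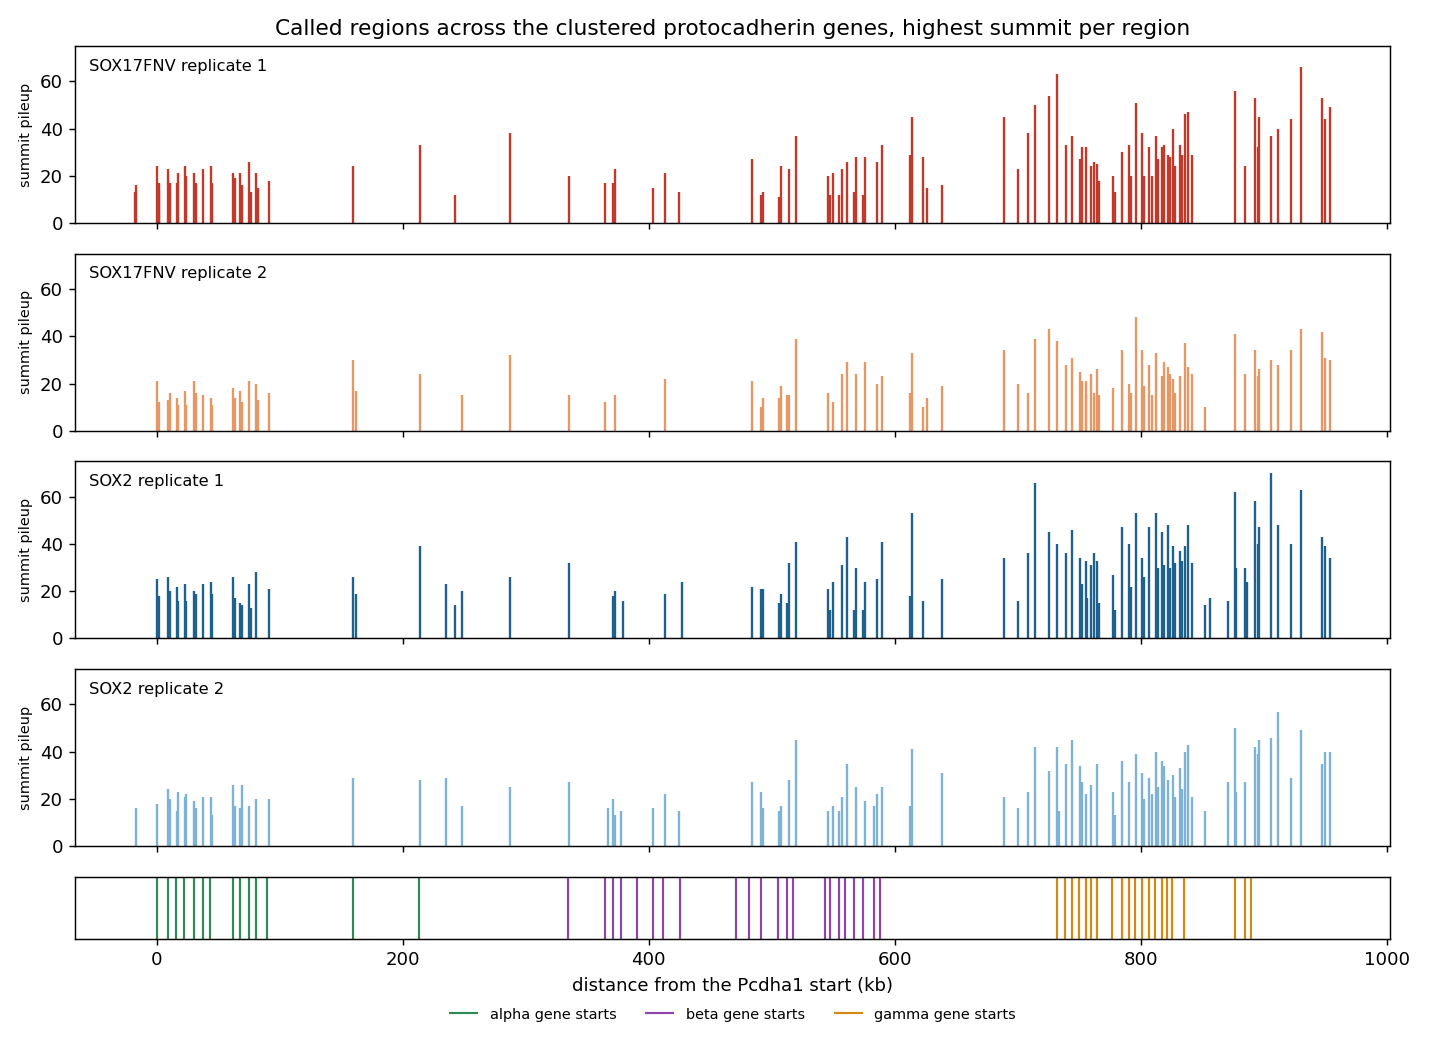
Summit pileup of every called region (vertical lines, 1 panel per library) against the distance from the Pcdha1 start in kb, with the starts of the 14 alpha, 22 beta and 21 gamma genes below. All panels show rows of low lines over the alpha starts, the tallest lines after the beta array and the closest lines over the gamma array.

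Starts were accessible at nearly all alpha and gamma genes and at few beta genes. A region lay within 1 kb of the start in all 4 libraries at 14 of 14 alpha genes, 20 of 21 gamma genes and 3 of 22 beta genes. In all, 37 of 57 members (64.9%) passed, beside 63.0% of 17492 other protein-coding genes with a listed start, at the same distance. The starts of those genes came from a promoter table and those of the members from the lower end of the gene span, so the shares rest on differently defined starts. Of the remaining beta genes, 1 start was called in 3 libraries, 8 in 2, 2 in 1 and 8 in none. Per library, 11, 5, 8 and 9 beta starts were called, while all libraries called 14 alpha and 20 gamma starts. The total of 45, 39, 42 and 43 starts did not separate the groups (means 42 ± 4.24 and 42.5 ± 0.707, SD, n = 2, exact permutation p = 1, two-sided). This difference of -0.5 was 2.5 without SOX17FNV replicate 2 and 0 without SOX2 replicate 2. The groups did not overlap in the median relative pileup of the 3 beta starts called in all libraries, which was 0.364, 0.583, 0.600 and 0.821 times the genome-wide median (0.473 ± 0.155 against 0.711 ± 0.157, SD, n = 2, exact permutation p = 0.333, the smallest possible). These medians were pileups of 12, 14, 21 and 23, at Pcdhb12 in SOX17FNV replicate 2 and at Pcdhb11 in the other libraries. The lowest pileups listed were 11, 10, 12 and 13. The nearest values, 0.583 and 0.600, thus came from different genes.

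Alternate alpha genes, from Pcdha1 to Pcdha12, formed a row of starts of similar, moderate height. The median pileup over the 14 alpha starts was 23.0, 17.5, 23.5 and 20.5. Relative to the genome-wide median of regions called in all libraries, these medians were 0.697, 0.729, 0.671 and 0.732, so the median alpha start was below the genome-wide median in each library. At Pcdha1 (36930285 to 37187657), the first gene of the array, the start region at 36930059 to 36930984 had pileups of 24, 21, 25 and 18. At Pcdha3 the start had the lowest mean percentile of the array, 41.4, with pileups of 17, 14, 22 and 15. A percentile here is a peak's rank by summit p-value, from weakest to strongest, in percent of the library's peaks. Tied peaks share their mean rank. The p-values are as deposited by the authors. Mean percentiles of the alpha starts ran from 41.4 to 80.3, with a median of 60.5.

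The alpha c-type genes had the strongest starts of the array by mean percentile. At Pcdhac2 (37143678 to 37187663) the start had pileups of 33, 24, 39 and 28 and a mean percentile of 80.3. At Pcdhac1 (37090136 to 37187657) the pileups were 24, 30, 26 and 29 and the mean percentile was 79.0. Pcdhac2 was not far above Pcdhac1, and their order changed between libraries. Both stood above the highest alternate alpha start by mean percentile, Pcdha8 with 68.3. In single libraries Pcdhac1 was not always above the alternate starts. Pcdha10 had a pileup of 26 in SOX17FNV replicate 1 and Pcdha11 one of 28 in SOX2 replicate 1.

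Gamma starts were higher than alpha starts in all 4 libraries by their median pileup, but not by their median fold enrichment. The median pileup over the 20 called gamma starts was 32.5, 27.5, 39.5 and 34.5, or 0.985, 1.15, 1.13 and 1.23 times the genome-wide median of each library. The median of their mean percentiles was 76.3, within a range of 50.7 to 94.7. Over all protein-coding genes whose start was called in all libraries, the median was 89.2, with quartiles of 77.6 and 95.3. By this percentile both arrays thus lay lower in their lists than the typical called start of these cells. The percentile ranks p-values against the local background, which was raised in gamma (below). Median fold enrichments over that background were 4.68, 4.34, 4.74 and 3.49 at alpha starts and 4.49, 4.55, 5.23 and 3.95 at gamma starts. By fold, gamma was thus lower than alpha in SOX17FNV replicate 1 and higher in the other libraries. Starts of the other genes were also defined differently, and their pileups are not given here.

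Pcdhga1 (37661775 to 37841870), the first gamma gene, had the strongest start of all members by mean percentile. Its pileups were 63, 38, 40 and 42, with fold enrichments of 10.8, 7.70, 6.77 and 6.67 over the local background, in the authors' deposited values. Pcdhgc3 (37806410 to 37841873) followed with pileups of 56, 41, 62 and 50 and a mean percentile of 94.3. Pcdhga8 had 51, 48, 53 and 39, with a mean percentile of 91.8, and Pcdhga7 had 30, 34, 47 and 36, with 90.6. The pileups of these 4 starts overlapped, although Pcdhgc3 and Pcdhga8 were both above Pcdhga7 in each library.

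The gamma c-type genes did not behave as a block. Beside the strong start of Pcdhgc3, Pcdhgc4 had pileups of 24, 24, 30 and 27 and a mean percentile of 54.3, among the lower gamma starts. Pcdhgc5 (37819546 to 37841873) was the gamma gene with no region within 1 kb of its start in any library. The nearest region called in all libraries began 2794 bp inside the gene, at 37822340 to 37823006, with pileups of 53, 34, 58 and 42.

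**Figure D2:**
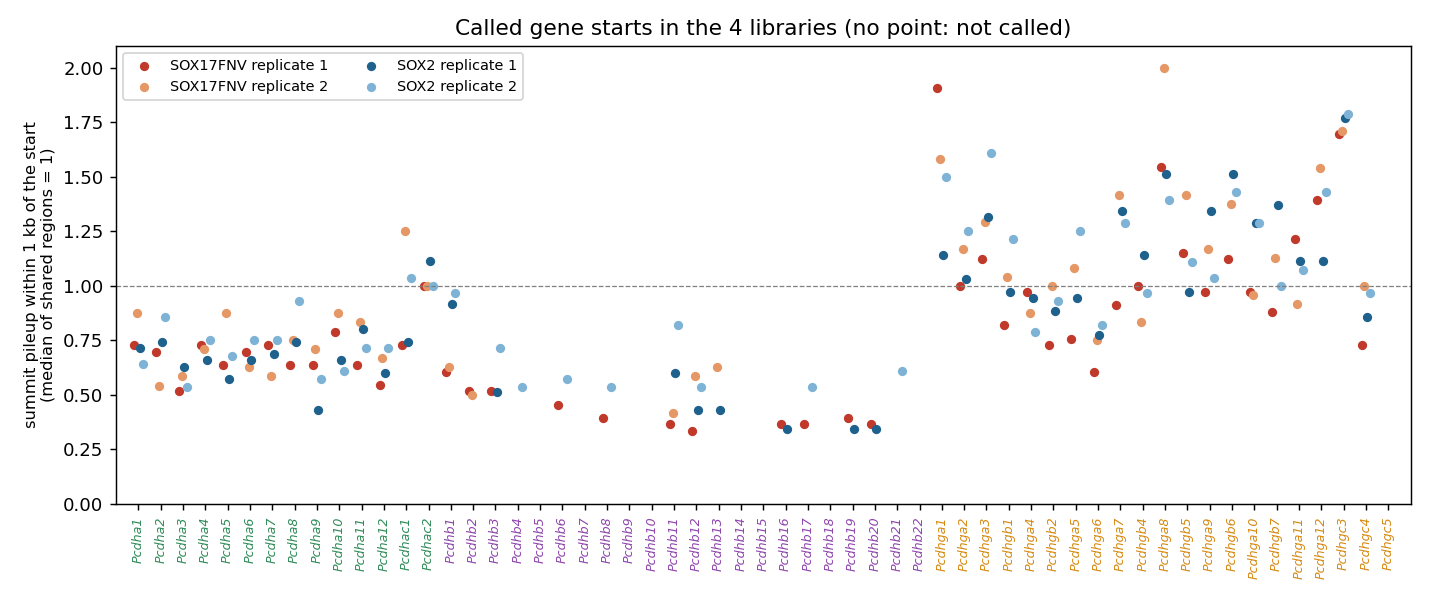
Highest summit pileup of the regions within 1 kb of each gene start, divided by the library's median over regions called in all libraries (dashed line at 1), with genes in chromosomal order and 1 point per library; a missing point is a start that was not called. Starts of alternate alpha genes sit below the dashed line, those of the 2 alpha c-type genes reach or pass it in some libraries, beta starts are sparse and low, and gamma starts spread from 0.606 at Pcdhga6 to 2.00 at Pcdhga8.

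At most beta genes an accessible site lay inside the gene, near 2 kb from the start. All libraries had a summit 1 to 3 kb past the start at 15 of 22 beta genes, against 7.55% of all protein-coding genes. At 13 of these the start was not called in all libraries, a pattern that 1.72% of all genes showed. This inside window was chosen after the positions of the peaks had been seen. The counts were the same with summits 1.5 to 2.5 kb inside. They were 15 and 12 to 13 when any 1 library was left out. Neither change could lower the first count, given where these summits lay and that fewer libraries had to agree. With -log10 q of at least 5, where q is the deposited p-value adjusted by the peak caller, 6 of the 15 were left.

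The median distance from the start to the inside summit ran from 1973 bp at Pcdhb11 to 2356 bp at Pcdhb3 over the 15 genes, with a median of 2172 bp and an SD of 98.3 bp between genes. Within a gene the 4 libraries placed the summit within a median range of 139 bp. The distance from the summit to the other end of the gene span ran from 544 to 3199 bp, with an SD of 826 bp. The distance from the start was bounded by the choice of summits 1 to 3 kb inside, and that to the other end was not, so these SDs were not compared by a test. At Pcdhb17, for example, the 4 summits fell within 13 bp around 2172 bp.

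Pcdhb14 (37447657 to 37451094) carried the strongest beta site, at 37449141 to 37450109, with pileups of 37, 39, 41 and 45 and fold enrichments of 7.74, 9.26, 8.12 and 7.65. Its mean percentile of 94.7 placed it level with the Pcdhga1 start. The inside summit had pileups of 26, 29, 43 and 35 at Pcdhb18 and of 33, 23, 41 and 25 at Pcdhb22. Neither gene had a called start in any library, and neither did Pcdhb7, Pcdhb10, Pcdhb14 and Pcdhb15. The median inside pileup over the 15 genes was 24, 21, 24 and 22. Inside summits were called at 15, 15, 17 and 16 beta genes, so the groups did not overlap (means 15 ± 0 and 16.5 ± 0.707, SD, n = 2, exact permutation p = 0.333, the smallest possible). The same 15 genes were called in every library. The further ones were Pcdhb4 and Pcdhb8 in SOX2 replicate 1 and Pcdhb2 in SOX2 replicate 2, so the SOX2 libraries shared none of them.

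Pcdhb1 (37264998 to 37267454), the first beta gene and apart from the others by position, showed the reverse arrangement. Its start was called in all libraries, with pileups of 20, 15, 32 and 27, and no inside summit was called in any. Pcdhb11 and Pcdhb12 had both sites in all libraries, with start pileups of 12, 10, 21 and 23 and of 11, 14, 15 and 15. Pcdhb5 and Pcdhb9 had neither site in any library. Pcdhb2, Pcdhb4, Pcdhb6 and Pcdhb8 had scattered calls in 1 or 2 libraries.

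Inside summits were also found in the other arrays, beside an accessible start. At 8 of 14 alpha genes and 5 of 21 gamma genes an inside summit was called in all libraries. All 13 also had the start called in all libraries. The alpha genes were Pcdha2, Pcdha3, Pcdha4, Pcdha5, Pcdha7, Pcdha8, Pcdha9 and Pcdha12, and the gamma genes Pcdhgb1, Pcdhgb5, Pcdhga10, Pcdhga11 and Pcdhga12. In alpha the inside site was weaker than the start at most of these genes, except in SOX2 replicate 2. It had the higher pileup at 1, 1, 0 and 3 of 8 genes per library and an equal one at 0, 1, 0 and 1. The median distance from the start was 1962 bp in alpha and 2334 bp in gamma, with SDs between genes of 273 and 302 bp, wider than in beta. No c-type gene had an inside summit in all libraries. The gamma count of 5 was 9 without SOX2 replicate 2.

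**Figure D3:**
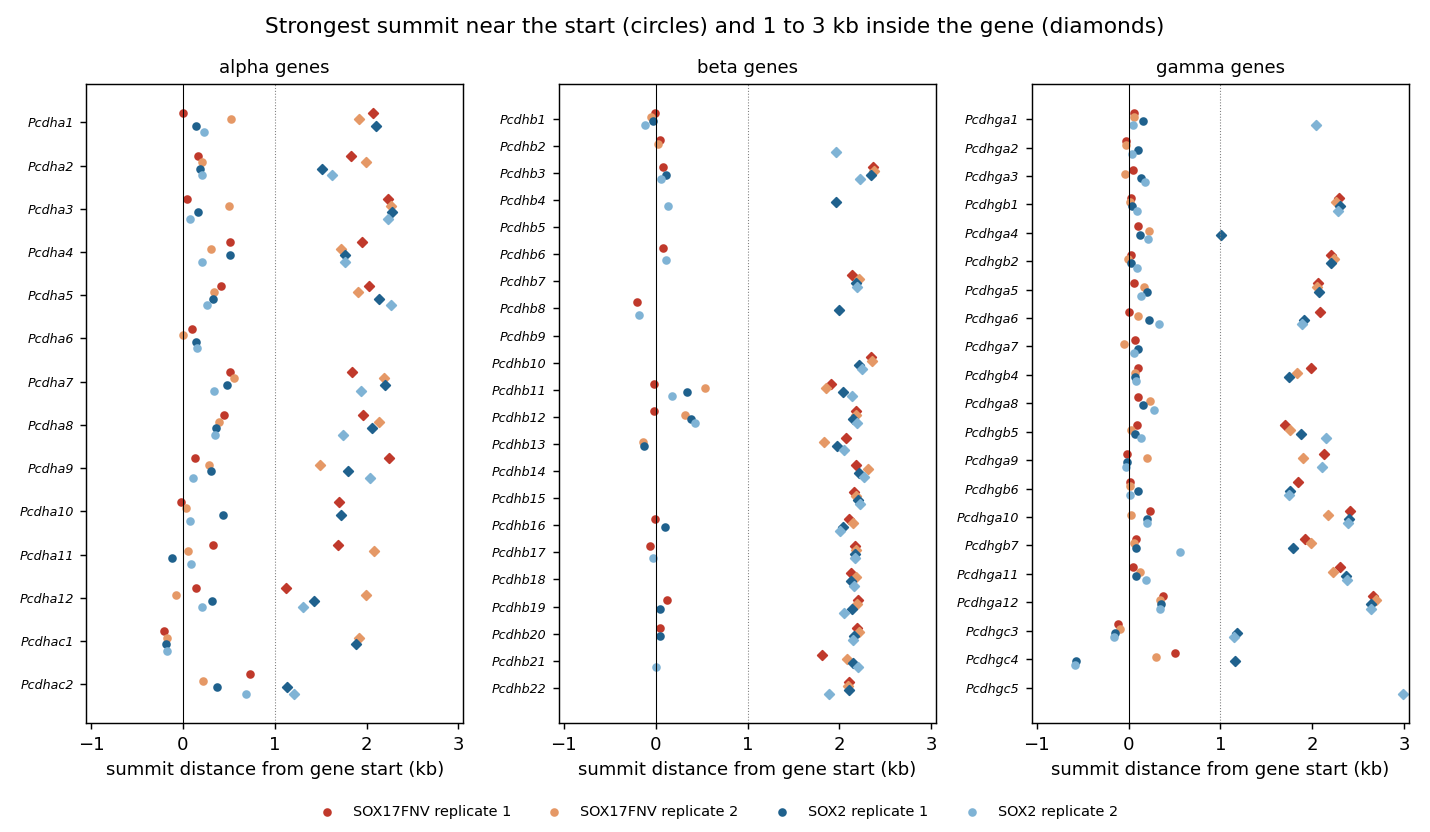
Distance in kb from the gene start to the strongest summit within 1 kb of the start (circles) and to the strongest summit 1 to 3 kb inside the gene (diamonds), with 1 row per gene in chromosomal order and 1 colour per library. Beta genes from Pcdhb10 onward line up in a column of diamonds near 2172 bp with few circles, while alpha and gamma genes show circles at the start in every row except Pcdhgc5.

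The strongest regions of the window were not all at protocadherin genes. By mean percentile the first was in Diaph1, at 37859781 to 37860763, with pileups of 66, 43, 63 and 49. The second, at 37643707 to 37644585, overlapped an end of the Taf7 span and had pileups of 50, 39, 66 and 42. The Pcdhga1 start, the Pcdhb14 site and the Pcdhgc3 start were also among the first 10. So was a region 25144 bp from the Pcdhb22 start, at 37543497 to 37544254, with pileups of 45, 33, 53 and 41. A region 5343 bp upstream of Pcdhga1 and the starts of Pcdhga8, Pcdhga7 and Pcdhga3 completed them.

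The downstream ends of the alpha and gamma arrays differed. At the gamma end a region of 2470 bp, at 37840661 to 37843130, covered the shared gene end and was called in all libraries, with pileups of 40, 28, 48 and 57. Upstream of it, 4 further regions called in all libraries lay between Pcdhgc5 and the gamma end, at 37822340, 37824587, 37826297 and 37835342. At the alpha end no region was called in all libraries beyond the Pcdhac2 start. The nearest one lay 28374 bp past the last alpha end, at 37217271 to 37218468, and was the only region between the alpha and beta arrays.

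The local background, from which the peak caller computes its fold enrichment, rose across the gamma array. At regions called in all libraries in the alpha and beta arrays, the median background equalled the lowest of each list. In the gamma array it was 1.85, 1.82, 2.07 and 1.64 times the lowest value, and downstream of gamma 1.85, 1.82, 2.18 and 1.54 times. Fold enrichments in gamma were therefore low for their pileups. The Pcdhgc5 region at 37822340, with pileups of 34 to 58, had fold enrichments of 3.43, 3.13, 3.24 and 2.51. How reads that match several copies of these related genes were treated is not given in the sources used here, and its part in the levels was not tested.

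**Figure D4:**
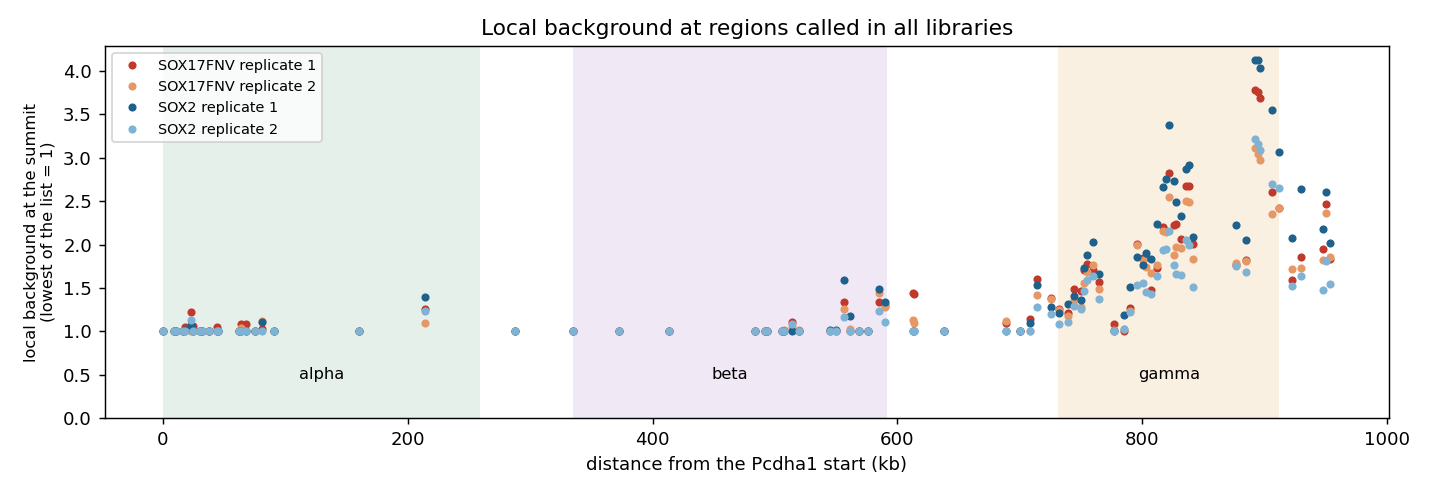
Local background pileup at the strongest summit of each region called in all libraries, divided by the lowest background of that library's list, against the distance from the Pcdha1 start in kb; shaded bands are the spans of the 3 arrays. Points lie at or near 1 over alpha and most of beta and rise over gamma in all 4 libraries, with a median of 1.64 to 2.07 there.

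Few regions of the window were called in 1 group alone. There were 2 SOX17FNV-only regions (1.52%), called in both SOX17FNV libraries and neither SOX2 library, against 3.06% of all regions. There were 3 SOX2-only regions (2.27%), against 4.09%. Both shares were below the background, and regions are not replicates, so no test was made. Leaving out a library loosens the rule, which then asks for agreement among fewer libraries, so these counts tend to rise. It does not show that they depend on 1 library. With SOX17FNV replicate 1 left out they were 8 and 8, and with SOX17FNV replicate 2 left out 6 and 5. With SOX2 replicate 1 left out they were 9 and 9, and with SOX2 replicate 2 left out 3 and 10.

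The strongest of the 5 was SOX2-only and lay at 37165336 to 37165922, inside the shared alpha gene spans and 21658 bp past the Pcdhac2 start. It had pileups of 23 and 29 in the SOX2 libraries, at percentiles of 65.7 and 82.4. It was still SOX2-only at a -log10 q threshold of 5, but at a threshold of 10 just 1 SOX2 library kept it. The other SOX2-only regions were both near Pcdhgc3. One at 37800611 to 37801190, 5220 bp before its start, had pileups of 16 and 27. One at 37807405 to 37807874, 995 bp past it, had pileups of 30 and 23. The latter made Pcdhgc3 the 1 member of 57 with a SOX2-only region within 1 kb of its start, against 0.978% of all genes. At a -log10 q threshold of 5, just 1 SOX2 library kept each of the regions near Pcdhgc3. At a threshold of 10 neither library did.

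The SOX17FNV-only regions were weak. One at 37294752 to 37295027 covered the Pcdhb2 start and had pileups of 17 and 12. Pcdhb2 was the 1 member of 57 with such a region at its start, against 0.406% of all genes. The other, at 37556292 to 37556584, lay 37939 bp past the Pcdhb22 start and had pileups of 15 and 14. Neither was called in any library with -log10 q of at least 5.

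Levels at the 84 regions called in all libraries were compared as relative pileups, the pileup divided by the library's median over all such regions in the genome. At 18 regions both SOX17FNV libraries were above both SOX2 libraries (21.4%), against 24.1% of 57783 regions. At 16 regions the SOX2 libraries were both higher (19.0%), against 18.4%. Over the whole window the shares were near the background in either direction. By array the shares ran apart, which was not tested. In gamma 10 of 32 regions were higher with SOX2 (31.25%) and 3 with SOX17FNV (9.38%). In alpha 3 of 20 were higher with SOX17FNV and 1 with SOX2, in beta 5 and 4 of 18, and between beta and gamma 4 and 1 of 8. Leaving out 1 library moved the first count to between 23 and 33 and the second to between 26 and 38. When pileups were divided by the genome-wide background in place of the median, 25 regions were higher with SOX17FNV and 4 with SOX2. In gamma the counts then became 6 with SOX17FNV and 1 with SOX2, so the direction there turned with the scaling. The direction held under both of these scalings, and with the chromosome 18 median, at 15 of the 18 and at 3 of the 16. Dividing by the background acts on all regions of a library alike. That background was 3.91, 3.27, 4.17 and 5.02, beside genome-wide median pileups of 33, 24, 35 and 28. Shares over all regions are not given for this scaling, nor for the 15 and 3 regions that also rest on it. None of these counts is therefore a result about the protocadherin regions.

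The 3 regions that were higher with SOX2 under every scaling were the starts of Pcdhb11 and Pcdhb1 and the end of the gamma array. At Pcdhb11 the relative pileups were 0.364, 0.417, 0.600 and 0.821, with means of 0.390 ± 0.0375 and 0.711 ± 0.157 (SD, n = 2). At Pcdhb1 they were 0.606, 0.625, 0.914 and 0.964, with means of 0.616 ± 0.0134 and 0.939 ± 0.0354. At the gamma end, 37840661 to 37843130, the means were 1.19 ± 0.0321 and 1.70 ± 0.470. The libraries of the groups did not overlap at these regions. With such shares in the background, this is a description of these libraries and not a call.

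Among the 15 regions higher with SOX17FNV under every scaling was the lone region between alpha and beta, at 37217271 to 37218468. Its pileups were 38, 32, 26 and 25, and its relative pileups 1.24 ± 0.129 with SOX17FNV and 0.818 ± 0.106 with SOX2 (SD, n = 2). A region 42552 bp upstream of Pcdhga1, at 37618480 to 37619223, had 1.39 ± 0.0375 and 0.861 ± 0.157. The inside site of Pcdhb20 had 1.03 ± 0.254 and 0.682 ± 0.00505. Gene starts in this set were those of Pcdha1, Pcdha9, Pcdha10, Pcdhga1, Pcdhga8 and Pcdhgb5, with ratios of the group means between 1.18 at Pcdha1 and 1.34 at Pcdha9. These regions were named after their values had been seen.

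**Figure D5:**
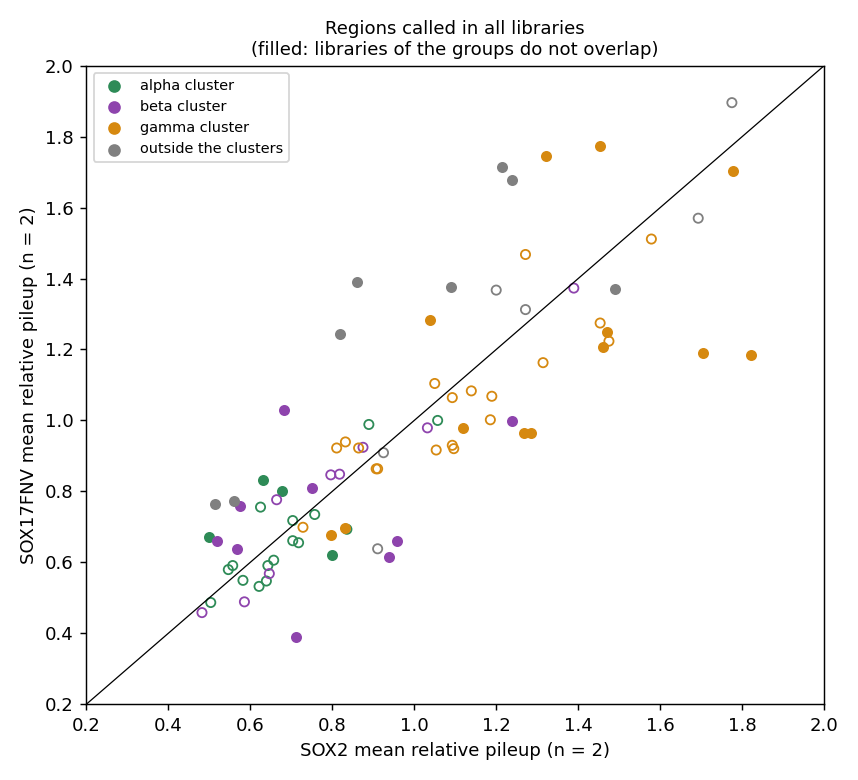
Mean relative pileup in the 2 SOX17FNV libraries against that in the 2 SOX2 libraries for the 84 window regions called in all libraries, coloured by array; filled points are the 34 regions at which the libraries of the groups did not overlap, and the line marks equality. Points lie on both sides of the line, with 18 filled above it and 16 below it.

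Among protocadherin genes outside the arrays, which encode related adhesion proteins with promoters of their own, 8 of the 9 with a listed start had it called in all libraries, and Pcdh15 in none, beside 63.0% of all genes. SOX17FNV-only and SOX2-only regions numbered 6 and 0 at Pcdh9, 1 and 2 at Pcdh8, 1 and 0 at Pcdh15, 0 and 2 at Pcdh7, and 0 and 1 at Pcdh1. Of the genes for chromatin architecture and silencing factors that act on the arrays, 14 of 16 with a listed start had it called in all libraries, beside the same 63.0%. The exceptions were Ehmt2 in 2 libraries and Dnmt1 in none, at the start farthest upstream that the table lists. In this list 4 of 20 genes had SOX17FNV-only regions, 7 in all, beside 14.9% of all protein-coding genes. SOX2-only regions were found at 6 of 20 genes, also 7 in all, beside 18.2%. Of the 12 protocadherins outside the arrays, 3 had a SOX17FNV-only and 3 a SOX2-only region. Wapl, which encodes the cohesin release factor, had 4 and 1, Ctcf had 0 and 1, Stag1 1 and 0, and Pds5b 0 and 2.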

How the data were processed

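ATAC-seq peak lists of 4 libraries were used. Per the submitters' processing notes, the tools were Bowtie2, SAMtools and MACS2 and the build mm10. The sources used here name no versions, settings or read filters, and whether read ends were shifted for Tn5 is likewise not given. The authors deposited 1 list per library, with a fold enrichment (ratio to local background), the -log10 of the p-value and q-value, and a score for each summit. Summit offsets were also deposited. Pileups were solved as whole numbers from the deposited fold and p-value, within a tolerance of 0.001 in -log10 p for 100% of summits. Positions are counted from 1.

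Peaks overlapping by 1 bp or more were merged with pandas 2.3.3 in Python 3.11.15. Exact permutation tests over libraries were two-sided, and merging was tested on simulated data. Gene spans came from RefSeq, GRCm38.p6, whose table holds no exons or strands. A member's start was therefore the lower end of its span. For other genes the start came from the promoter table, which holds none of the 57 members. No sequence is shown. Group-specific regions were assigned to the nearest protein-coding span within 50 kb. The named genes and regions follow a written rule: starts called in all libraries, group-specific regions, c-type genes, the 10 regions of highest mean percentile, and the array ends. Members, lists and rules were chosen with earlier results of these data known. Alternatives were stricter q-values, shorter lists, other distances, a larger overlap and leaving out each library.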

Additional observations from a re-analysis of the deposited data

How the results depend on the processing

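Stricter peaks thinned the window. Regions called in all libraries numbered 37 with -log10 q of at least 5, 14 with at least 10, and 40 among the strongest 50000 peaks of each list. In the same order they were 3, 0 and 5 in alpha, 6, 2 and 6 in beta, and 18, 7 and 18 in gamma. Starts called in all libraries were 17, 7 and 18 in total, 3, 0 and 5 in alpha and 0, 0 and 0 in beta. In gamma they were 7 with at least 10 and 13 among the strongest peaks. Inside summits were 6, 2 and 6 in beta, in each case at genes whose start was not called in all libraries (6, 2 and 6). They were 0, 0 and 0 in alpha and 1, 0 and 1 in gamma. With lists of equal length, 1 beta start and 4 SOX17FNV-only regions were found. Within 2 kb of the start, which reaches the inside sites, 15 beta genes were counted, and 10 within 1 kb of either end. Dividing pileups by the genome-wide background, which moves all regions of a library alike, left 4 regions higher with SOX2, of which 1 in gamma. Requiring an overlap of 100 bp changed none of the region, start or inside-summit counts.

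Leaving out 1 library gave differences between groups of -8.5 to 0.5 peaks and -3.5 to 2.5 called starts. SOX17FNV-only regions numbered 3 to 9 and SOX2-only regions 5 to 10, since their rule is looser with fewer libraries. Gamma inside summits numbered 5 to 9, a count that cannot fall with fewer libraries. Regions higher with SOX17FNV numbered 23 to 33, and with SOX2 26 to 38, since a group of 1 library separates more easily. With a replicate block, which pairs libraries of the same number, the differences were -4 peaks and -0.5 starts, and the smallest exact p was 0.5. The alternatives for the inside summits and the scalings were chosen after seeing the data. Depth limits what an uncalled start shows.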
